A study of Homo sapiens with 4 samples.

Results

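The 40 genes described here encode proteins of the centrosome and its centrioles: the kinase PLK4, the cartwheel proteins STIL and SASS6, the scaffolds PCNT and CDK5RAP2, the spindle pole protein ASPM, CENPJ, CNTROB, CCDC18 and 31 proteins whose symbols begin with CEP. They were picked by symbol from the deposited gene count tables of 60614 gene rows. All 40 were found, and all 40 were among the 17539 genes with enough reads to test. RNA-seq was done on DU145, an established human prostate carcinoma cell line, of 2 genotypes: cells labelled SPOP-F133V (called F133V here), 2 libraries, and cells labelled wild-type, 2 libraries. All were grown in the same serum-containing medium, and no treatment is named. SPOP recruits proteins to the CUL3 ubiquitin ligase for breakdown, and residue F133 belongs to the domain that grips those proteins. Whether the mutant cells are 1 clone, a pool or an overexpressing line, and whether the replicates are separate cultures, is not in the labels. An effect of the mutation and one of how the lines were derived therefore cannot be told apart, and p-values cover only the spread between these libraries.

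The centrosome is the main microtubule-organising centre of an animal cell. It holds a pair of centrioles, which are copied once per cell cycle: PLK4 starts the copy, STIL and SASS6 build the cartwheel from which it grows, and further proteins lengthen and cap it. Around the centrioles lies a matrix of PCNT, CDK5RAP2 and CEP192 that nucleates microtubules, and the older centriole carries appendages from which a cilium can grow. Several of these genes are known from inherited microcephaly, among them ASPM, STIL, SASS6, CENPJ, CEP152 and CEP135. Many are transcribed in step with cell division.

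Reads counted in genes numbered 35173245 to 39642063 per library. The members had at least 57 reads in each library, with a median of 1082, so counting error was small for most of them. SPOP itself stood at 1171 and 1151 CPM (counts per 1e+06 reads, scaled between libraries) in F133V replicates 1 and 2, against 844 and 906 CPM in wild-type replicates 1 and 2, a log2 fold change of 0.41 ± 0.055 (SE; edgeR quasi-likelihood test, Benjamini-Hochberg (BH) adjusted p = 2.7e-06). Gene counts do not show which allele was read, so this does not check the genotype labels. Of the epithelial and prostate markers, KRT8, KRT18, KRT19, EPCAM and CDH1 were well expressed, with a summed level of all 9 markers of 2262 and 2459 CPM in F133V libraries and 1860 and 1858 CPM in wild-type libraries; KRT5 and KLK3 had no reads. The 10 markers of blood, fibroblast and endothelial cells summed to 7.82 and 8.25 CPM in F133V libraries and 6.34 and 6.61 CPM in wild-type libraries. The defining markers PTPRC, CD3E, HBB and DCN were at or near 0 in all 4 libraries. Nearly all of that sum was COL1A1.

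Centrosome and centriole genes were lower in F133V cells. Of the 40 genes, 33 were called lower, 1 was called higher and 6 were not called by edgeR's quasi-likelihood F-test (BH-adjusted p under 0.05 over all tested genes). Over all 17539 tested genes 54.8% were called, 27.6% lower and 27.2% higher. The median log2 fold change was -0.71 over the 40 genes and 0.022 over all tested genes. In bulk RNA, fewer cells that express a gene cannot be told apart from less of its RNA per cell. Under upper-quartile scaling, which moved the median of all genes to 0.13 and called 6462 genes higher and 3831 lower (4763 and 4841 as measured), 29 members were called lower and 2 higher, CEP131 and CEP85. A wild-type library left out leaves the spread to the F133V pair alone, which differed more than the wild-type pair (chi-square over its degrees of freedom 7.68 for F133V and 1.64 for wild-type), so calls lost in that way, given below, rest on a wider error, and the lone wild-type library is assumed to vary like the F133V pair. With upper-quartile scaling CEP41, CEP76, CEP164 and CDK5RAP2 lost the call, and the uncalled fold changes of CEP72, CEP250 and CNTROB turned positive. In 33 of the 40 genes both F133V libraries lay below both wild-type libraries, in 2 both lay above, and in 5 the groups overlapped; among all tested genes the first happened in 37.8% and the second in 40.1%. The falls of at least 2-fold numbered 7 of 40, against 2.81% of all tested genes: CCDC18, ASPM, CEP135, CEP290, CEP295, SASS6 and CEP350.

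The transcripts of these genes are poor in G and C, and the difference between the genotypes followed GC content across all genes. The longest transcript of the 40 genes (GENCODE release 29) had a median GC content of 40.9%, against 48.8% for all tested genes, and 28 of the 40 lay at or under 43.0%, the upper edge of the lowest 3 of 10 equal-sized bins of GC content (made over the 11764 genes with a mean log2 CPM above 2). In the bin of lowest GC content all genes had a median log2 fold change of -0.68, and in the bin of highest GC content 0.29. All 28 GC-poor members were called lower, as were 80.1% of all 3529 genes in those 3 bins. Among the 12 members richer in GC, 5 were called lower, against 16.9% of the 8235 genes of that GC range. The F133V libraries also differed from each other along GC content (Spearman rho 0.77 across 11764 genes, replicate 2 minus replicate 1), whereas the wild-type libraries gave rho -0.072; genes are not independent replicates, and these values are descriptions. Values are given in both forms in what follows: as measured, and after each library's trend on GC content and transcript length had been removed, called adjusted. The adjustment also removes any true difference that follows GC content.

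After adjustment 24 of the 40 genes were called lower, 0 higher and 16 were not called (edgeR, BH-adjusted p under 0.05). Of all 17299 genes in the adjusted fit 52.2% were called, 24.5% lower and 27.6% higher; at p under 0.05 before BH correction 0 of the 40 were higher and 27 lower. Among the 11764 genes with a mean log2 CPM above 2, the share called lower was 35.8% as measured and 32.1% after adjustment. Of the 28 GC-poor members 18 were called lower after adjustment, against 32.8% of all genes in those bins. Of the 12 richer in GC 6 were, against 31.9%. The median adjusted log2 fold change was -0.24 over the 40 genes and 0.018 over all. In both fits 21 genes were called lower. A further 12 were called lower as measured and not after adjustment: CEP41, CEP44, CEP57, CEP57L1, CEP76, CEP78, CEP83, CEP85L, CEP95, CEP112, CEP126 and CEP162. After adjustment only, 3 genes of higher GC content were called lower: CEP72, CEP250 and CNTROB. CEP131 was called higher as measured and not after adjustment, and CEP68, CEP85 and CEP89 were called in neither fit. Set against the median of all genes in their own GC bin, 37 of the 40 unadjusted fold changes lay lower, the exceptions being CEP57L1, CEP68 and CEP131. Against the wild-type mean, 36 of 40 lay below their bin's median in F133V replicate 1 alone and 37 in F133V replicate 2 alone.

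**Figure D1:**
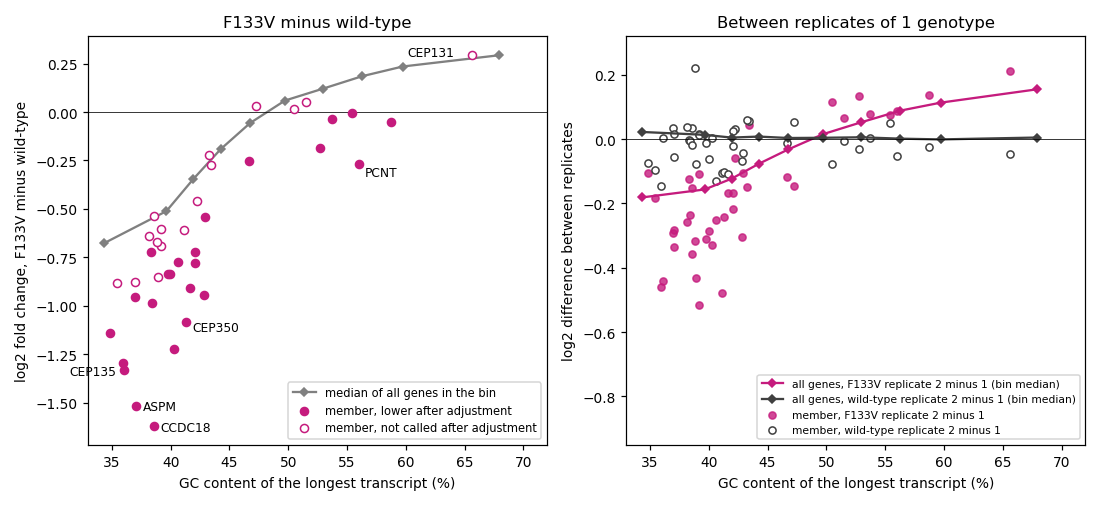
Left, log2 fold change (F133V minus wild-type) of each of the 40 genes against the GC content of its longest transcript, with the median of all genes in 10 bins of GC content drawn at the bin's middle as a grey line; filled points were called lower after adjustment. Most points lie under the line, and CCDC18 and ASPM lie farthest below it. Right, the log2 difference between the replicates of each genotype (replicate 2 minus 1) for the same genes and bins: F133V replicate 2 lay below replicate 1 for most GC-poor members, and the wild-type replicates showed no such slope.

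The genes that build the new centriole were nearly all lower. Of 10 genes of procentriole assembly, 9 were called lower as measured and 7 after adjustment, with medians of -0.75 and -0.30 on the log2 scale. Their median GC content was 39.6%, in the range where 80.1% of all genes were called lower as measured and 32.8% after adjustment. PLK4, the kinase that starts centriole duplication (ENSG00000142731.11, chromosome 4, 127880861 to 127899195 on GRCh38), stood at 30.6 and 26.0 CPM in F133V replicates 1 and 2, against 56.1 and 55.9 CPM in wild-type replicates 1 and 2. Both F133V libraries lay far below both wild-type libraries, with F133V replicate 2 the lower. PLK4 averaged 28.3 ± 3.26 CPM in F133V cells against 56.0 ± 0.144 CPM in the wild-type (SD, n = 2), giving a fold of 0.505 and a log2 fold change of -0.98 ± 0.080 (SE; edgeR BH-adjusted p = 4.23e-09) and -0.42 ± 0.049 after adjustment (edgeR BH-adjusted p = 2.61e-09).

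STIL, which binds PLK4 and brings SASS6 to the growing site (ENSG00000123473.16, chromosome 1, 47250139 to 47314147), stood at 39.4 and 35.1 CPM in F133V libraries, against 63.4 and 64.6 CPM in wild-type libraries. SASS6, the protein of the cartwheel's spokes (ENSG00000156876.10, chromosome 1, 100083563 to 100132955), stood at 7.74 and 7.20 CPM in F133V libraries, against 16.9 and 16.0 CPM in wild-type libraries. The groups did not overlap for either gene. The log2 fold change was -0.78 ± 0.074 for STIL and -1.14 ± 0.096 for SASS6 as measured (SE; edgeR BH-adjusted p = 2.89e-08 and 6.44e-09), and -0.42 and -0.44 after adjustment (edgeR BH-adjusted p = 4.15e-10 and 2.3e-05). CEP135, which joins the cartwheel to the microtubule wall (ENSG00000174799.11, chromosome 4, 55948871 to 56033363), had the deepest fall of this group. CEP135 stood at 6.54 and 4.82 CPM in F133V libraries, against 14.3 CPM in both wild-type libraries, a log2 fold change of -1.33 ± 0.12, and -0.65 ± 0.093 after adjustment (SE; edgeR BH-adjusted p = 1.01e-08 and 1.87e-07).

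The receptors that place PLK4 on the mother centriole fell as well. CEP152 averaged 16.1 ± 1.99 CPM in F133V cells, against 27.6 ± 1.76 CPM in wild-type cells, and CEP192 57.3 ± 6.11 CPM in F133V cells, against 94.3 ± 0.92 CPM in the wild-type (SD, n = 2). Their log2 fold changes were -0.78 and -0.72 as measured and -0.31 and -0.30 after adjustment. CEP63 and CEP57, which form a ring with CEP152, had log2 fold changes of -0.54 each as measured. CEP63 kept its call after adjustment (-0.23, edgeR BH-adjusted p = 0.0041), but not when wild-type replicate 1 was left out (edgeR BH-adjusted p = 0.0662). CEP57 gave 0.01 after adjustment (edgeR BH-adjusted p = 0.876). CEP57L1, the paralogue of CEP57, gave -0.64 as measured and -0.06 after adjustment (edgeR BH-adjusted p = 3.19e-06 and 0.404). CEP85, a binding partner of STIL with a transcript of 51.5% GC, was the member of this group not called: it stood at 63.3 and 66.2 CPM in F133V libraries, against 62.5 and 62.3 CPM in wild-type libraries, and its log2 fold change was 0.05 ± 0.067 as measured and -0.04 ± 0.042 after adjustment (SE; edgeR BH-adjusted p = 0.522 and 0.424).

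**Figure D2:**
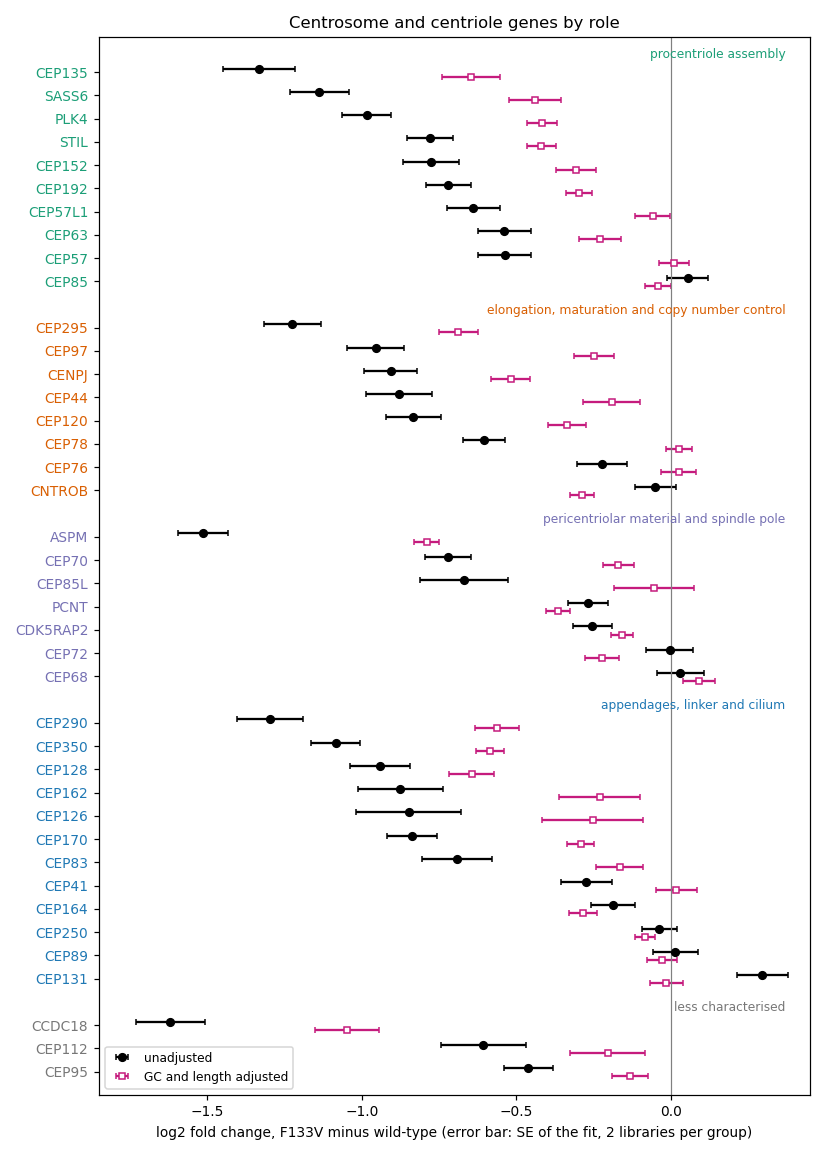
Log2 fold change (F133V minus wild-type) of the 40 genes by role, as measured (black points) and after adjustment for GC content and length (open squares), each with the SE of the fit. Nearly all black points lie left of 0, and the adjusted values lie nearer to 0 for the deepest falls and farther left for GC-rich genes such as CNTROB, CEP72 and PCNT.

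Promoters are shown for the trio of PLK4, STIL and SASS6, for the members of lowest fold change, CCDC18 and ASPM, and for CEP131, the member called higher, because cell-cycle genes often carry a shared set of promoter motifs. The windows are RefSeq's, from 250 bases before to 50 after the gene start on GRCh38.p14, 5′ to 3′ on the gene's strand, and were matched by symbol for 37 of the 40 genes. RefSeq's gene start can differ from that of GENCODE release 29, which gave the gene positions in this text. The CCDC18 window lies inside the GENCODE gene, which starts at 93179919. Those of CEP112, CEP128 and CEP164 lie farther inside theirs, so such windows may miss a promoter. Capitals mark the motifs searched on both strands: TTTGAA or TTCGAA, the cell cycle genes homology region (CHR); TTCCCGC or TTGGCGC, forms of the E2F site; and CCAAT, the NF-Y box.
PLK4, chr4:127880643-127880942, plus strand: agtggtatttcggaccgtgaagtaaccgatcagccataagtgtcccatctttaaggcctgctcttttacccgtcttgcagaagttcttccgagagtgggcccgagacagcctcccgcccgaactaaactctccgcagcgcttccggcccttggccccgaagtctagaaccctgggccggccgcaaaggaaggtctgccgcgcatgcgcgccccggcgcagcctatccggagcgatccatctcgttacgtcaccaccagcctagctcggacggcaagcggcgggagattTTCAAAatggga
STIL, chr1:47314098-47314397, minus strand: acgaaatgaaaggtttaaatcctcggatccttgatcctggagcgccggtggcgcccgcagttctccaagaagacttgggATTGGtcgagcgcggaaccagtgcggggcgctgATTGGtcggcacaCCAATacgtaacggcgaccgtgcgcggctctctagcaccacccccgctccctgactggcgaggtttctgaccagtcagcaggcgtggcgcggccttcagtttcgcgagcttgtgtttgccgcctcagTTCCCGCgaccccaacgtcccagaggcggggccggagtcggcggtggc
SASS6, chr1:100132881-100133180, minus strand: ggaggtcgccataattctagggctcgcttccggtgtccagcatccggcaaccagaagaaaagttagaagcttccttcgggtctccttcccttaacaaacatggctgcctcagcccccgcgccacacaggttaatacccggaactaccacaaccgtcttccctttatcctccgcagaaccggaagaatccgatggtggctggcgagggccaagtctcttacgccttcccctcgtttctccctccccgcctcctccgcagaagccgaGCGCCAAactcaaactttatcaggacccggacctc
CCDC18, chr1:93180466-93180765, plus strand: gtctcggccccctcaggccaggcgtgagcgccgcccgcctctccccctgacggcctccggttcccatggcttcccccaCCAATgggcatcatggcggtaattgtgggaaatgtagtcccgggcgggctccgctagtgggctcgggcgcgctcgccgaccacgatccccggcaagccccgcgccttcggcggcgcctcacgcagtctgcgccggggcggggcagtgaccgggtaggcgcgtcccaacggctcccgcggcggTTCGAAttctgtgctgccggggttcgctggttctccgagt
ASPM, chr1:197146620-197146919, minus strand: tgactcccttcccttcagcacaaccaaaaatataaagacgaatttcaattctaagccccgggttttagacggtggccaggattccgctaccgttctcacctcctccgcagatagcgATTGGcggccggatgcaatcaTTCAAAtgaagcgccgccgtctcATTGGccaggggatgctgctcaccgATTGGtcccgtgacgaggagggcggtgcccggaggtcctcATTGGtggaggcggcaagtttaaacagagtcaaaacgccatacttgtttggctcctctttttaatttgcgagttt
CEP131, chr17:81222916-81223215, minus strand: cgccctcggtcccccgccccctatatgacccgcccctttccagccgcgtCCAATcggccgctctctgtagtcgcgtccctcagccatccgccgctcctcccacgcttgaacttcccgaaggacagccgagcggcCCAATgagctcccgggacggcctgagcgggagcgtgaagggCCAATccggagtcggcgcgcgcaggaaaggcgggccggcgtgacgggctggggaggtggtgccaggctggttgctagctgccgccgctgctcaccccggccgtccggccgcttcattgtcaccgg

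A CHR motif stood in the windows of PLK4, CCDC18 and ASPM, an E2F motif in those of STIL and SASS6, and CCAAT in those of STIL, CCDC18, ASPM and CEP131. The motifs did not overlap one another in these 6 windows. Over the 37 members, 40.5% of windows held a CHR motif, 29.7% an E2F motif and 54.1% a CCAAT motif; over all 27303 RefSeq windows the shares were 16.6%, 9.33% and 35.7%, and over the 12090 windows of tested genes 11.1%, 14.3% and 35.9%. Among the 22 members called lower after adjustment 45.5% held a CHR motif, against 33.3% of the 15 others; an E2F motif was held by 31.8% against 26.7% and CCAAT by 11 of 22 against 9 of 15. These are sets of few windows, and the differences were not tested. A match of 5 to 7 letters is a description of the sequence and not evidence of binding.

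Genes that lengthen, mature or cap centrioles were mostly lower. Of 8, 7 were called lower as measured and 5 after adjustment, with medians of -0.86 and -0.27. Their median GC content was 40.1%, in the range where 80.1% of all genes were called lower as measured and 32.8% after adjustment. CEP295, needed for a new centriole to become a centrosome (ENSG00000166004.15, chromosome 11, 93661639 to 93730358), stood at 15.4 and 12.3 CPM in F133V libraries, against 32.4 and 32.5 CPM in wild-type libraries. F133V replicate 2 was again the lowest library. The log2 fold change of CEP295 was -1.22 ± 0.093 as measured and -0.69 ± 0.063 after adjustment (SE; edgeR BH-adjusted p = 1.98e-09 and 5.13e-12). CENPJ, also called CPAP, which sets centriole length, averaged 15.3 ± 1.26 CPM in F133V cells, against 28.7 ± 1.52 CPM in the wild-type (SD, n = 2), with a log2 fold change of -0.91 as measured and -0.52 after adjustment. Its partner CEP120 gave -0.83 as measured and -0.34 after adjustment, and CEP97, which caps centrioles together with CCP110, gave -0.96 and -0.25; all of these passed in both fits. CEP44 (-0.88 and -0.19), CEP78 (-0.61 and 0.03) and CEP76 (-0.22 and 0.03), the last of which limits reduplication, passed as measured and not after adjustment. CEP76 was not called with either wild-type library left out (edgeR BH-adjusted p = 0.155 and 0.286), nor by DESeq2. CNTROB, a daughter-centriole protein whose longest transcript has 58.7% GC, stood at 80.6 and 88.6 CPM in F133V libraries, against 88.4 and 86.9 CPM in wild-type libraries; its log2 fold change was -0.05 as measured (edgeR BH-adjusted p = 0.546) and -0.29 ± 0.039 (SE) after adjustment (edgeR BH-adjusted p = 5.38e-08).

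Of 7 genes of the pericentriolar material and spindle pole, 5 were called lower as measured and 5 after adjustment. CEP85L was called only as measured and CEP72 only after adjustment. Median GC content was 46.6% here. Of all tested genes, 27.6% were called lower as measured and 24.5% after adjustment. ASPM, a microtubule minus-end protein of spindle poles (ENSG00000066279.19, chromosome 1, 197084128 to 197146694), stood at 69.6 and 55.1 CPM in F133V libraries, against 182 and 175 CPM in wild-type libraries. The groups stood far apart, the higher F133V library being well under the lower wild-type one. The mean was 62.4 ± 10.2 CPM in F133V cells, against 178 ± 4.98 CPM in the wild-type (SD, n = 2), for a fold of 0.350 and a log2 fold change of -1.51 ± 0.082, and -0.79 ± 0.041 after adjustment (SE; edgeR BH-adjusted p = 4.18e-11 and 6.71e-19). Per kilobase of exon, ASPM was at 5.73 RPKM in F133V cells and 16.4 RPKM in wild-type cells. Among the 40 genes only CEP250 had a higher level per length in wild-type cells, 19.7 RPKM, with 19.2 RPKM in F133V cells.

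As measured, the scaffolds PCNT and CDK5RAP2 had smaller fold changes than the median of the 40 genes (-0.71). After adjustment PCNT lay below the median of -0.24 and CDK5RAP2 above it. PCNT, the large scaffold pericentrin, stood at 93.7 and 99.6 CPM in F133V libraries, against 119 and 114 CPM in wild-type libraries. CDK5RAP2, which binds and activates the gamma-tubulin ring complex, stood at 127 and 117 CPM in F133V libraries, against 146 and 145 CPM in wild-type libraries. The groups did not overlap for either, and the log2 fold changes were -0.27 ± 0.064 for PCNT and -0.25 ± 0.063 for CDK5RAP2 as measured, and -0.37 and -0.16 after adjustment (SE; edgeR BH-adjusted p = 0.00131 and 0.00179 as measured, 1.03e-10 and 0.000387 after adjustment). As measured, PCNT was not called when wild-type replicate 1 was left out (edgeR BH-adjusted p = 0.121), and CDK5RAP2 was not called without wild-type replicate 1 (0.0969) or wild-type replicate 2 (0.0785). CEP70, a gamma-tubulin binding protein, gave -0.72 as measured and -0.17 after adjustment (edgeR BH-adjusted p = 8.92e-08 and 0.0037). CEP85L, the paralogue of CEP85, gave -0.67 and -0.06 (edgeR BH-adjusted p = 0.000436 and 0.745) at only 3.81 and 3.06 CPM in F133V libraries, against 5.07 and 5.91 CPM in wild-type libraries. CEP72 stood at 28.6 and 30.1 CPM in F133V libraries, against 28.9 and 30.0 CPM in wild-type libraries, and was called only after adjustment (-0.22, edgeR BH-adjusted p = 0.000555). CEP68 stood at 40.8 and 36.9 CPM in F133V libraries, against 37.4 and 38.8 CPM in wild-type libraries, and had a log2 fold change of 0.03 ± 0.075 (SE; edgeR BH-adjusted p = 0.761).

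**Figure D3:**
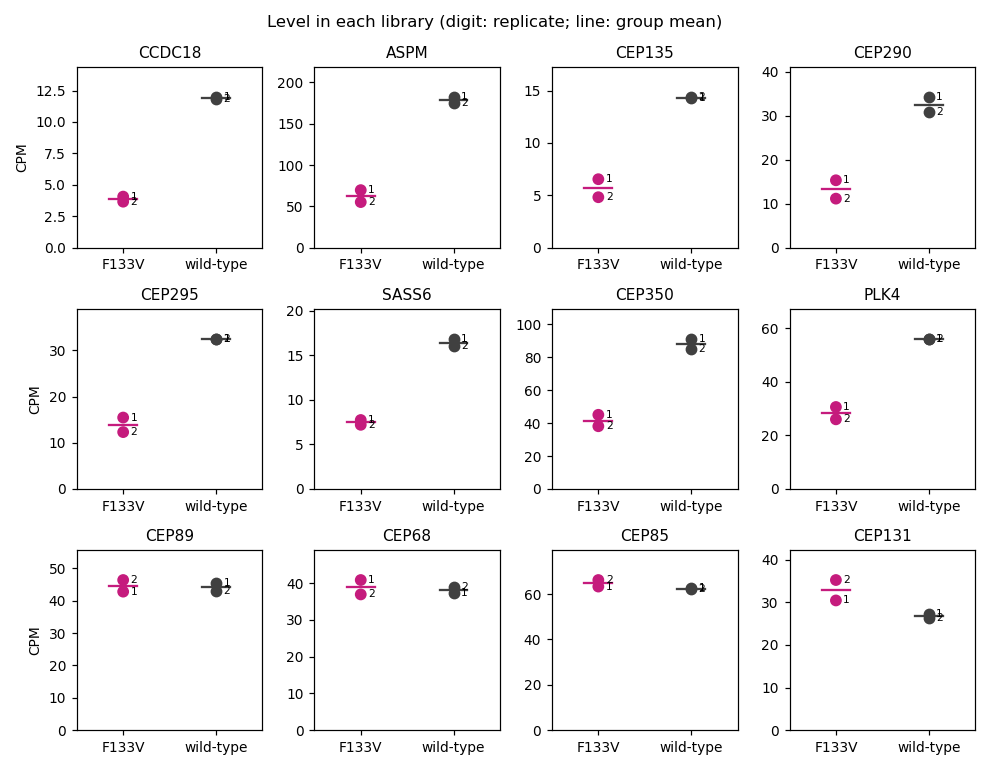
CPM of 12 genes in each library, with F133V libraries on the left and wild-type libraries on the right of each panel, the replicate number beside each point and a line at the group mean; each axis starts at 0. In the upper 8 panels, the members of lowest fold change, both F133V points lie well under both wild-type points; in the lower 4, the members of highest fold change, CEP89 and CEP68 overlap, and CEP85 and CEP131 lie above wild-type.

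Genes of the appendages, the linker between centrosomes and the cilium base were also mostly lower. Of 12, 9 were called lower, 1 higher and 2 not called as measured, and 6 were called lower after adjustment. Their median GC content was 42.1%, again in the GC-poor range (80.1% of all genes lower as measured, 32.8% after adjustment). CEP290, a protein of the ciliary transition zone (ENSG00000198707.17, chromosome 12, 88049014 to 88142216), stood at 15.3 and 11.1 CPM in F133V libraries, against 34.1 and 30.9 CPM in wild-type libraries, a log2 fold change of -1.30 ± 0.11, and -0.56 ± 0.071 after adjustment (SE; edgeR BH-adjusted p = 5.3e-09 and 1.07e-08). CEP350, a very large protein of the centriole wall (ENSG00000135837.16, chromosome 1, 179954738 to 180114880), stood at 45.1 and 38.1 CPM in F133V libraries, against 91.3 and 85.1 CPM in wild-type libraries, a log2 fold change of -1.08 ± 0.079, and -0.59 ± 0.046 after adjustment (SE; edgeR BH-adjusted p = 1.19e-09 and 5.84e-14). In both, the F133V libraries lay far below the wild-type libraries.

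Among the appendage proteins, CEP128 and CEP170 of the subdistal appendages fell by 0.94 and 0.84 on the log2 scale as measured and by 0.65 and 0.29 after adjustment. Their levels were 11.2 ± 1.67 CPM and 56.2 ± 8.55 CPM in F133V cells, against 21.6 ± 0.734 CPM and 100 ± 0.566 CPM in the wild-type (SD, n = 2). The distal appendage proteins CEP83, CEP164 and CEP89 differed from each other. CEP83 gave -0.69 as measured and -0.17 after adjustment, where it was not called (edgeR BH-adjusted p = 0.0668). CEP164 gave -0.19 and -0.29 (edgeR BH-adjusted p = 0.0312 and 9.86e-07), and as measured was not called without wild-type replicate 1 (0.338) or 2 (0.237). CEP89 stood at 42.8 and 46.4 CPM in F133V libraries, against 45.3 and 42.9 CPM in wild-type libraries, and its log2 fold change of 0.01 ± 0.073 (SE) was not called (edgeR BH-adjusted p = 0.889). Whether these 3 differ from one another beyond error was not tested.

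CEP250, the linker protein C-Nap1, stood at 304 and 322 CPM in F133V libraries, against 321 CPM in both wild-type libraries, and its log2 fold change was -0.04 as measured and -0.08 after adjustment (edgeR BH-adjusted p = 0.599 and 0.0281). Leaving out either wild-type library removed the adjusted call (edgeR BH-adjusted p = 0.140 and 0.220). The cilium genes CEP162 (-0.88), CEP126 (-0.85) and CEP41 (-0.27) were called lower as measured and not after adjustment (edgeR BH-adjusted p = 0.136, 0.194 and 0.847). CEP126 had the fewest reads of all members, at 0.232 RPKM in F133V cells and 0.418 RPKM in wild-type cells. CEP41 was not called with either wild-type library left out (edgeR BH-adjusted p = 0.0890 and 0.173). CEP131, a centriolar satellite protein and the member richest in GC at 65.6%, stood at 30.5 and 35.3 CPM in F133V libraries, against 27.2 and 26.3 CPM in wild-type libraries. It was called higher as measured, with a log2 fold change of 0.30 ± 0.082, and gave -0.01 ± 0.053 after adjustment (SE; edgeR BH-adjusted p = 0.00469 and 0.839). That call was lost when wild-type replicate 1 was left out (edgeR BH-adjusted p = 0.0759) or wild-type replicate 2 (0.138).

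The less characterised CCDC18 (ENSG00000122483.17, chromosome 1, 93179919 to 93278730), a coiled-coil protein, had the deepest fall of all 40 genes in both fits. It stood at 4.06 and 3.66 CPM in F133V libraries, against 11.9 and 11.8 CPM in wild-type libraries. Its mean of 3.86 ± 0.285 CPM in F133V cells, against 11.9 ± 0.105 CPM in the wild-type (SD, n = 2), was a fold of 0.325. The log2 fold change was -1.62 ± 0.11 as measured and -1.05 ± 0.10 after adjustment (SE; edgeR BH-adjusted p = 6.87e-10 and 2.7e-11), the only fall of at least 2-fold among the members after adjustment, where 0.688% of all genes had one. Of the exonic bases of CCDC18, 12.0% overlap TMED5 on the opposite strand, and the sources used here do not say if the counting was stranded. CEP95 gave -0.46 and CEP112 -0.61 as measured, and -0.13 and -0.20 after adjustment, where neither was called (edgeR BH-adjusted p = 0.0511 and 0.154).

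The F133V libraries differed from each other for these genes too. F133V replicate 2 lay below F133V replicate 1 in 31 of 40 genes, with a median difference of -0.17 on the log2 scale, whereas wild-type replicate 2 lay below replicate 1 in 24 of 40, with a median of -0.011. In 26 of 40 the difference between the F133V replicates was below the median of all genes of like GC content. The deficit against wild-type was present in each F133V library alone: the median over the 40 genes was -0.55 for F133V replicate 1 and -0.81 for F133V replicate 2, each against the wild-type mean. All genes in the bin of lowest GC content had medians of -0.56 and -0.76 in these comparisons, and those of the next bin -0.42 and -0.57. Of the 40 genes, 36 lay below the median of their own GC bin in replicate 1 and 37 in replicate 2. Without F133V replicate 2 the members called lower numbered 35, and without F133V replicate 1 33. Under adjustment these numbers were 25 and 27. Within the 40 genes the unadjusted fold change followed GC content (Spearman rho 0.78, 40 genes that share the same 4 libraries) more closely than transcript length (rho -0.24), and after adjustment the rho with GC content was 0.32.

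In the other lists of centrosome genes more genes were called lower than higher. Among all tested genes 27.6% were called lower and 27.2% higher as measured, and 24.5% lower and 27.6% higher after adjustment. Of 28 other genes of centriole assembly, 18 were called lower and 1 higher as measured, and 17 lower and 4 higher after adjustment. The lowest p-values as measured belonged to BRCA1, which is found at centrosomes besides its role in DNA repair (-1.08 as measured, -0.67 after adjustment), KIAA0586, the ciliopathy protein TALPID3 (-1.15 and -0.59), the capping protein CCP110 (-0.87 and -0.28) and ALMS1 (-0.74 and -0.45). POC1B (-0.37 and 0.30) and CETN3 (-0.52 and 0.16) were called lower as measured and higher after adjustment, and PPP1R35 (0.25 and -0.13) higher as measured and lower after adjustment; these were named after their values were seen. Of 15 other appendage and linker genes, 8 were lower and 1 higher as measured, and 9 lower and 1 higher after adjustment. ANKRD26 (-1.41 and -0.73), CNTRL, the appendage protein centriolin (-1.004 and -0.64), NIN, the subdistal appendage protein ninein (-0.81 and -0.38), and CNTLN (-0.95 and -0.40) had the lowest p-values as measured. Of 17 centriolar satellite genes, 12 were lower and 3 higher as measured, and 9 lower and 1 higher after adjustment. Median GC content of this list was 41.6%, in the GC-poor range (80.1% of all genes lower as measured, 32.8% after adjustment). The appendage and linker list, at 42.7%, lay there too, and the assembly list, at 43.1%, just above. Shares called lower as measured were 70.6% for satellites and 53.3% for appendages and linker, both under 80.1%. After adjustment these shares were 52.9% and 60%, both over 32.8%. CCDC14 (-1.14 and -0.42), TBC1D31 (-0.83 and -0.36) and PCM1, the satellite scaffold (-0.83 and -0.25), fell in both fits, and the ubiquitin ligase MIB1 (-0.75 and -0.06) only as measured (edgeR BH-adjusted p = 2.56e-08 and 0.177). Each gene given with a pair of values and no p passed in both fits.

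The list of gamma-tubulin ring and augmin genes, which act in microtubule nucleation, had calls in both directions. It also holds CKAP5, TACC2 and TACC3, which belong to neither complex and are named after their values were seen. TACC2 was called higher in both fits (0.29 and 0.19) and CKAP5 lower in both (-0.50 and -0.25). TACC3 was called lower only after adjustment (-0.07 and -0.32). Of 23, 10 were lower and 4 higher as measured, and 10 lower and 3 higher after adjustment, with a median of -0.093 as measured and -0.11 after adjustment. The 10 lower genes were not the same set in both fits. Median GC content of the 23 genes was 51.8%. In both fits 43.5% of the list was called lower, against 27.6% of all genes as measured and 24.5% after adjustment. HAUS6 of augmin (-1.16 and -0.54) and the scaffold AKAP9 (-1.18 and -0.50) fell in both fits, and NEDD1 (-0.77 and -0.09) and HAUS3 (-0.73 and -0.11) as measured only (edgeR BH-adjusted p after adjustment 0.086 and 0.174). MZT1, a small subunit of the ring complex, also named after its values were seen, was called lower as measured (-0.45) and higher after adjustment (0.29). TUBG1, gamma-tubulin itself, chosen after its value was seen, stood at 150 and 158 CPM in F133V libraries, against 155 and 156 CPM in wild-type libraries. Its log2 fold change was -0.02 as measured and -0.30 after adjustment (edgeR BH-adjusted p = 0.840 and 2.92e-09).

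Genes of mitotic entry and the spindle were mostly lower. Of 23, 16 were lower and 2 higher as measured, and 16 lower and 0 higher after adjustment (edgeR, with 1 higher at p under 0.05 before BH correction). The sets differed: NEK7, NEK9, CDK1 and CCNB1 were called lower only as measured, and PLK1, UBE2C, CDC20 and BIRC5 only after adjustment. Those genes were named after their values were seen. The list had a median of -0.29 as measured and -0.24 after adjustment, at a median GC content of 44.3%. Its share called lower was 69.6% in both fits, against 27.6% of all genes as measured and 24.5% after adjustment. MKI67, the proliferation antigen, stood at 430 and 391 CPM in F133V libraries, against 738 and 724 CPM in wild-type libraries (-0.83 as measured, -0.74 after adjustment, GC content 48.3%). CENPF (-1.17 and -0.65), TOP2A (-1.13 and -0.57) and the spindle motor KIF11 (-1.13 and -0.55) fell in both fits. With MKI67 they had the lowest p-values of the list as measured. Others moved less. CDK1 gave -0.63 and -0.05, and CCNB1 -0.22 and 0.01 (edgeR BH-adjusted p after adjustment 0.240 and 0.874). PLK1 gave -0.10 and -0.32 (edgeR BH-adjusted p = 0.179 and 4.03e-09). NEK6 (0.19) and NUMA1 (0.15), named after their values were seen, were called higher as measured. The part of proliferation genes such as MKI67 in the lower centrosome gene levels was not tested.

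**Figure D4:**
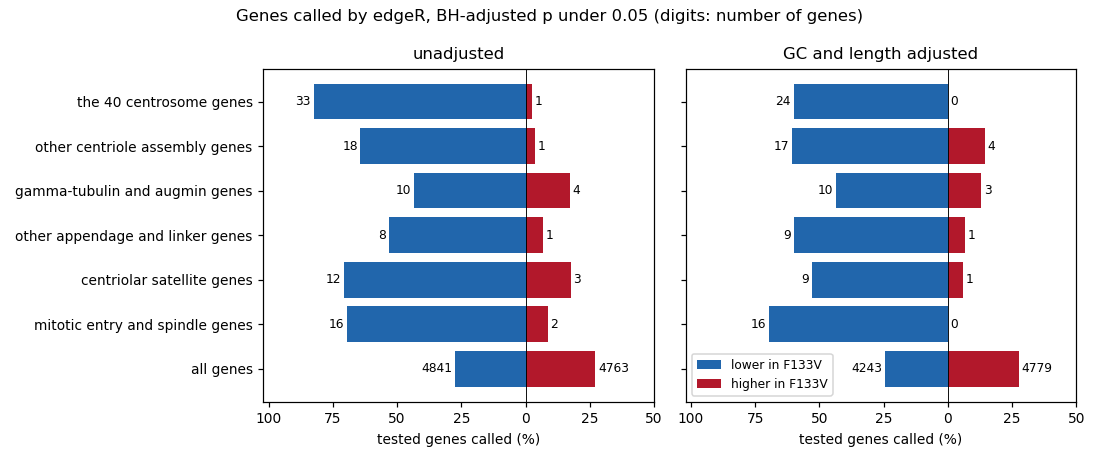
Share of tested genes called lower (blue, to the left) and higher (red, to the right) in F133V cells, as measured and after adjustment, for the 40 centrosome genes, 5 other gene lists and all genes; digits give the number of genes. The 40 genes had 33 lower and 1 higher as measured and 24 lower and 0 higher after adjustment, and the gamma-tubulin and augmin list had 10 lower and 4 higher as measured and 10 lower and 3 higher after adjustment.

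The counts of some members may include reads of other genes or miss some of their own. Pseudogenes named after CEP170, CEP164 and CEP57L1 had at most 20 reads in a library, though reads that align to several places stood outside the gene counts. On the opposite strand, exonic overlap reached 11.3% for CEP295, 11.0% for CEP72 (with TPPP), 8.78% for CEP68 (with RAB1A), 7.6% for CEP76 (with PSMG2), 6.51% for CEP44 (with FBXO8) and 6.29% for CEP95 (with DDX5). SASS6 shared 7.35% of its exonic bases with AC093019.2 on its own strand. Where strand was not used, reads on such shared bases count as reads of several genes, which stayed out of the gene counts. For SASS6 this holds with or without strand. If the annotation used held both genes, overlap would lower a member's count rather than add the partner's reads. The size of this effect was not tested.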

How the data were processed

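RNA-seq was done on 4 libraries, 2 of SPOP-F133V and 2 of wild-type DU145 cells, as single reads of 75 bases per the labels' protocols. The authors deposited raw counts of reads per gene; TopHat2 2.0.10, HTSeq 0.6.0 and hg38 are named in the submitters' processing notes, and the annotation used is not named there. Reads that HTSeq gave to no single gene (no gene 6.12% to 6.53%, several alignments 13.6% to 16.6%, several genes 3.50% to 3.73% of reads) stayed out of library sizes and tests. Depth was 35173245 to 39642063 counted reads per library.

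Counts were analysed with edgeR 4.0.16 in R 4.3.3: filterByExpr, TMM scaling, quasi-likelihood F-test over all tested genes, two-sided, BH adjustment, threshold 0.05. The fit leaves 2 residual degrees of freedom; the biological coefficient of variation was 4.64%, and 2.46% after adjustment. The SE is the log2 fold change over the square root of F. RPKM divides CPM by the length of a gene's merged exons. For the adjusted fit, the log2 distance of a library from the mean of each gene was smoothed on GC content and log2 length of the longest transcript (mgcv 1.9.3, basis dimension 8, fitted on genes whose log2 CPM averaged over 2), set to a median of 0 and used as an offset; 98.6% of tested genes and all 40 members had a value. Library differences from single libraries use log2(CPM + 0.5). Replicates differed by more than sampling noise (chi-square over its degrees of freedom 7.68 for F133V and 1.64 for wild-type). Positions are those of GENCODE release 29. The alternatives were DESeq2 1.42.0, other scalings, no filter, GC content alone, a replicate block and each library left out. The members, gene lists and alternatives were chosen with earlier results of these data known. The text names all 40 members, SPOP and up to 4 called genes of lowest adjusted p from each other list; per-library values are given for the 8 lowest and 4 highest fold changes among members and where groups are compared. Genes named outside the rule are marked. The value of 1 marker is not reported here.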

Additional observations from a re-analysis of the deposited data

How the results depend on the processing

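Of the 40 members, 17 were called lower in all 17 settings and 4 in none. The median over the members (-0.71) was -0.60 with upper-quartile scaling, -0.24 with GC content and length adjusted, -0.27 with GC content alone adjusted and -0.24 with the replicate block and both adjusted. It was -0.88 to -0.58 with each library left out, and when adjusted as well -0.33 without F133V replicate 1, -0.22 without F133V replicate 2, -0.23 without wild-type replicate 1 and -0.26 without wild-type replicate 2. The members called lower numbered 32 with DESeq2, 28 to 35 with each library left out, and 22 to 27 when adjusted as well. Replicate numbers are shared between the groups, but the labels do not say that they mark a batch, and same-numbered libraries did not deviate together (correlation -0.052); the fit with the replicate block called 33 members lower and 1 higher, as without it.

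Counts of genes called higher were small and moved most. With F133V replicate 2 left out, the adjusted log2 fold change was 0.15 for CEP68 and -0.034 for CEP131. Members called higher (1) were 2 with upper-quartile scaling, and 0 adjusted for GC content and length, for GC content alone or with the block and both. Other centriole assembly genes higher (1) were 3 with upper-quartile scaling, 4 in each of those adjusted fits, and 0 to 5 with a library left out. Gamma-tubulin and augmin genes higher (4) were 2 with GC content alone and at the lowest 2 with a library left out. Other appendage and linker genes higher (1) were 3 with upper-quartile scaling, 0 with GC content alone, and 0 to 3 with a library left out. Satellite genes higher (3) were 1 with DESeq2, adjusted for both or with the block and both, and at the lowest 1 with a library left out; satellite genes lower (12) were at the lowest 7. Mitotic genes higher (2) were 1 with DESeq2, 0 in each adjusted fit, and 0 at the lowest with a library left out. All genes called higher (4763) numbered 2786 to 5225 with a library left out, with 2819 without wild-type replicate 1 and 2786 without wild-type replicate 2.

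The members' log2 fold changes that took the opposite sign were these. CEP41 gave 0.018 adjusted or adjusted with the block, 0.054 adjusted without F133V replicate 1 and 0.040 adjusted without wild-type replicate 2. CEP57 gave 0.010 adjusted, 0.043 adjusted for GC content alone, 0.096 adjusted without F133V replicate 2, 0.023 adjusted without wild-type replicate 2 and 0.0078 adjusted with the block. CEP68 gave -0.0060 adjusted without F133V replicate 1 and -0.075 to 0.10 with a library left out. CEP72 gave 0.11 with upper-quartile scaling and -0.042 to 0.016 with a library left out. CEP76 gave 0.025 adjusted or adjusted with the block, 0.042 adjusted for GC content alone, 0.049 adjusted without F133V replicate 2 and 0.054 adjusted without wild-type replicate 2. CEP78 gave 0.027 adjusted or adjusted with the block, 0.024 adjusted without F133V replicate 1, 0.029 adjusted without wild-type replicate 1 and 0.034 adjusted without wild-type replicate 2. CEP85 gave -0.042 adjusted or adjusted with the block, -0.045 adjusted for GC content alone, -0.067 adjusted without F133V replicate 1, -0.054 adjusted without F133V replicate 2, -0.035 adjusted without wild-type replicate 1 and -0.048 adjusted without wild-type replicate 2. CEP85L gave 0.045 adjusted without wild-type replicate 2. CEP89 gave -0.0023 with DESeq2 size factors, -0.0022 with DESeq2, -0.030 adjusted or adjusted with the block, -0.058 adjusted for GC content alone, -0.021 adjusted without F133V replicate 1, -0.077 adjusted without F133V replicate 2, -0.075 adjusted without wild-type replicate 2 and -0.047 to 0.051 with a library left out. CEP131 gave -0.015 adjusted or adjusted with the block, -0.033 adjusted for GC content alone or adjusted without F133V replicate 1, -0.034 adjusted without F133V replicate 2 and -0.044 adjusted without wild-type replicate 2. CEP250 gave 0.074 with upper-quartile scaling. CNTROB gave 0.061 with upper-quartile scaling. The cause was not tested. The fits of all 4 libraries without the block have 2 residual degrees of freedom; those with a library left out or with the block have 1.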
